A study of Mus musculus with 208 samples.

Results

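The response of the hypothalamus to lipopolysaccharide (LPS) after perinatal morphine was read as the difference between MOR–LPS and MOR–SAL libraries, 28 of the 208 libraries of the series and 28 of the 51 hypothalamus libraries. They are the columns of the hypothalamus count table whose labels name these groups and whose total count reached 50% of the median of all 51 columns. All 28 passed that limit, 14 in each group, and the 3 libraries that did not pass were from the saline-exposed groups. The mice were wild-type C57BL/6NTac. Dams carried minipumps with morphine sulfate at 10 mg/kg/day through gestation, the pups were raised by drug-naive foster dams, and they received morphine by injection in the first weeks of life, followed by withdrawal without taper. As adults, of an age the labels do not state exactly, MOR–LPS mice were injected with LPS and MOR–SAL mice with saline, and tissue was taken 2 h later. Both groups thus carried the morphine exposure, which was assigned by dam, and the comparison is between challenges. Saline-exposed mice with the same challenges (SAL–LPS, 11 libraries kept; SAL–SAL, 9 libraries kept) enter only where the response to LPS is compared between exposures. Each library was nuclear RNA of sorted NeuN+ nuclei from the tissue punch of 1 animal, 7 labelled female and 7 labelled male in each morphine group.

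LPS is a component of the outer membrane of Gram-negative bacteria. It is sensed by the Toll-like receptor Tlr4 with its co-receptor Cd14, which activates the transcription factor NF-kB and, through released cytokines, the STAT3 and interferon pathways. The hypothalamus turns these signals into fever, loss of appetite and the release of glucocorticoid hormone from the adrenal gland, and glucocorticoids in turn induce genes such as Fkbp5, Klf9 and Nfkbia through the glucocorticoid receptor in neurons and glia alike. NeuN is a protein of the nuclei of mature neurons, so a NeuN+ sort is made to keep neurons and to leave out glia. The RNA measured is the RNA in nuclei at the time of collection.

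The 28 libraries held 3036876 to 9227808 counts, and no pair within MOR–LPS or within MOR–SAL were copies of each other. Pairs across the groups were not compared. The most abundant gene, the predicted gene Gm26917, took 6.91 to 40.0% of the counts in MOR–LPS and 7.10 to 24.9% in MOR–SAL. Labels and RNA went against each other in several libraries. By Xist and 4 Y-linked genes, 3 of the 28 libraries did not match their labelled sex (1 MOR–LPS and 2 MOR–SAL libraries, all labelled female). The neuron markers summed to 2250, 2820 and 3750 normalized CPM (counts divided by the scaled library size; lowest, median and highest library) in MOR–SAL and to 2080, 2690 and 3440 in MOR–LPS, where 4 libraries, all with the glial RNA described next, lay below every MOR–SAL library. Astrocyte markers summed to 94.1, 144 and 232 in MOR–SAL and to 143, 799 and 2580 in MOR–LPS. Oligodendrocyte markers summed to 76.8, 338 and 647 in MOR–SAL and to 227, 577 and 6370 in MOR–LPS, and microglia markers to 24.1, 37.4 and 53.9 against 22.3, 51.1 and 284. In 7 of 14 MOR–LPS libraries, 6 of them labelled female, the oligodendrocyte and microglia sums both exceeded every MOR–SAL library; the same was true of 3 SAL–LPS and 2 SAL–SAL libraries. They are called libraries with glial RNA below. The astrocyte sum exceeded every MOR–SAL library in 11 of 14 MOR–LPS libraries, including libraries outside this set at 254, 370, 429 and 609 normalized CPM.

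The region label was read the same way. Slc17a7, Neurod6 and Neurod2, genes of excitatory neurons of the cortex and hippocampus, together reached 100 normalized CPM in 6 of 14 MOR–LPS libraries and in 2 SAL–LPS libraries. Their sum was at most 27.7 in MOR–SAL, with a median of 6.64, against a median of 47.5 and a highest value of 380 in MOR–LPS. It exceeded every MOR–SAL library in 8 of 14 MOR–LPS libraries, including libraries under the limit of 100 at 47.5 and 47.6. Sim1, Otp and Nkx2-1, transcription factors that define hypothalamic territories, stayed under 3 normalized CPM in sum in 4 MOR–LPS and 2 MOR–SAL libraries. Medians of that sum were 28.8 in MOR–LPS and 46.5 in MOR–SAL. Together 10 of the 14 MOR–LPS libraries carried glial, cortical or hippocampal RNA by these limits. The glial limit is the MOR–SAL maximum, so no MOR–SAL library could pass it, and no MOR–SAL library reached the cortical or hippocampal limit. Striatum markers summed to 271, 332 and 796 in MOR–SAL and to 139, 222 and 304 in MOR–LPS, with 12 of 14 MOR–LPS libraries below every MOR–SAL library, and 2 of the 8 markers, Rgs9 and Pde10a, were lower (adjusted p = 0.0106 and 0.0461, edgeR). Their part in the genes that fell was not tested. The limits were set after the values were seen, so the gene lists and leading genes are also given without the libraries with glial RNA and without those with cortical or hippocampal RNA. In such bulk libraries fewer nuclei of a type and less RNA per nucleus cannot be told apart.

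**Figure D1:**
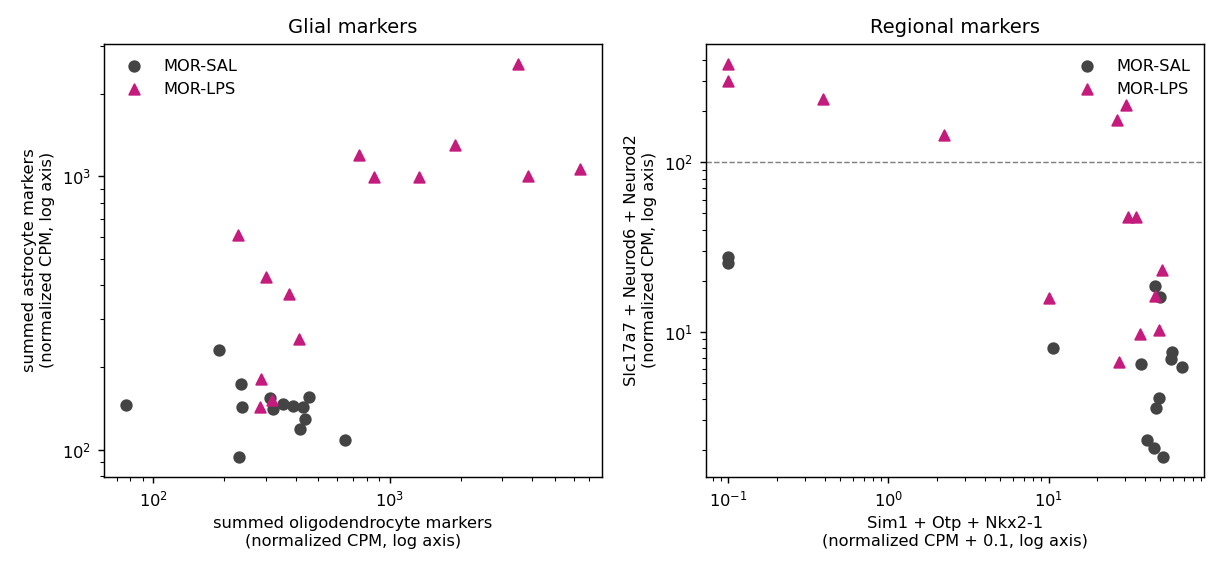
Each point is 1 library. The left panel plots summed astrocyte against summed oligodendrocyte markers (normalized CPM, log axes), where 7 MOR–LPS libraries stand to the upper right of every MOR–SAL library; the right panel plots summed Slc17a7, Neurod6 and Neurod2 against summed Sim1, Otp and Nkx2-1 (normalized CPM, log axes), where 6 MOR–LPS libraries lie above the dashed line at 100.

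With all libraries, 1263 of 28841 genes tested (4.38%) were higher in MOR–LPS than in MOR–SAL and 708 (2.45%) were lower at an adjusted p under 0.05 by edgeR's quasi-likelihood test (Benjamini-Hochberg). The genes that rose included glucocorticoid-induced genes (Klf9, Arrdc2, Zbtb16, Hif3a), acute inflammatory genes (Lcn2, Cd14, Nfkbia), astrocyte genes (Slc1a2, Gfap) and the lipid carriers Apod and Abca1, while the leading genes that fell included Gabrg3, Grm7 and Lingo2. Leaving out the libraries with glial RNA gave 298 of 27694 genes higher (1.08%) and 202 lower (0.729%), and leaving out those with cortical or hippocampal RNA gave 301 of 28073 higher (1.07%) and 92 lower (0.328%). Without both sets, which keeps 4 MOR–LPS libraries, 35 of 27044 genes were higher (0.129%) and 66 lower (0.244%), so that the share of calls that were higher went from 64.1% to 34.7%. Of these 4 libraries 3 had fewer genes detected than any MOR–SAL library (13712 to 20094 genes over the 4, against 18679 to 23302 in MOR–SAL), 1 was the library with 40% of its counts in Gm26917 and 1 was the MOR–LPS library of unclear sex. Also among the 4 were libraries where Slc17a7, Neurod6 and Neurod2 summed to 47.5 and 47.6 normalized CPM, above every MOR–SAL library. The part of these features in the shift was not tested. With litter as a replicate block, 280 of 27210 genes (1.03%) were higher and 177 (0.65%) lower, and with counts summed over litters and that block 131 were higher (0.481%) and 150 lower (0.551%). DESeq2 had 4.76% of genes higher and 1.55% (351) lower with all libraries, and 1114 of the 1971 genes were among its calls. In edgeR 2.71% were higher and 1.7% lower with the summed glial markers as a covariate, and 3.24% were higher with filterByExpr, a stricter filter on low counts. In the fits without 1 litter 1.6 to 4.21% of genes were higher and 0.847 to 2.16% lower, and in those without 1 library 3.29 to 5.08% and 1.74 to 2.58%. The counts of list members are read against these shares. Leaving out litter 6, 14, 15 or 16 gave 1056, 901, 1297 and 697 genes called, of which 945, 842, 1107 and 613 were among the 1971 called with all libraries, and scaling by library size alone gave 1024 higher and 893 lower. A set of 78 genes, 53 higher and 25 lower, was called with all libraries, without glial RNA and without cortical or hippocampal RNA, and 22 of these were also called without both.

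The promoters of the first genes of the ranking that the RefSeq table held (GRCm38.p6) are shown because these genes led the response. They are the 250 bases before the start that RefSeq gives, 5′ to 3′ on the strand of the gene, and capitals mark letters that match the AP-1 motif TGANTCA or the interferon and STAT motif (GAS) TTCNNNGAA on either strand. Slc1a2 lies at chr2:102658659-102790784 on the + strand, Klf9 at chr19:23141226-23168134 on the + strand, Gfap at chr11:102887336-102900912 on the - strand and Arrdc2 at chr8:70835129-70839720 on the - strand (mm10, GENCODE M21). For Slc1a2 and Gfap the RefSeq start of the table lies inside the GENCODE gene, whose span begins further upstream, so the window belongs to an internal start and starts upstream of it are not shown.
Slc1a2 chr2:102706188-102706437: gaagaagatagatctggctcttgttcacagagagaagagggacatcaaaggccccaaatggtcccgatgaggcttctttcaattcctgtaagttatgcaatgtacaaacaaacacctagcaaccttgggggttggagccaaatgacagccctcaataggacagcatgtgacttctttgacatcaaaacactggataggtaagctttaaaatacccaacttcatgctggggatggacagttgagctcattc
Klf9 chr19:23140976-23141225: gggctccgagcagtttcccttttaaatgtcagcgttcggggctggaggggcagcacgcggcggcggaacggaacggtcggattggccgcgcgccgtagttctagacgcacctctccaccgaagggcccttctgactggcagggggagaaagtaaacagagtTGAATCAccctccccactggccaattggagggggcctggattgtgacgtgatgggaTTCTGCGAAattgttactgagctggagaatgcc
Gfap chr11:102897201-102897450: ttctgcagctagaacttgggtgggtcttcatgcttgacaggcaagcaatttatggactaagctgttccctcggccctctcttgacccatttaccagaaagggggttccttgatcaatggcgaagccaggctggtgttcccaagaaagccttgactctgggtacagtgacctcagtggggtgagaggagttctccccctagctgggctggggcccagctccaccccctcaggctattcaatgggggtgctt
Arrdc2 chr8:70839721-70839970: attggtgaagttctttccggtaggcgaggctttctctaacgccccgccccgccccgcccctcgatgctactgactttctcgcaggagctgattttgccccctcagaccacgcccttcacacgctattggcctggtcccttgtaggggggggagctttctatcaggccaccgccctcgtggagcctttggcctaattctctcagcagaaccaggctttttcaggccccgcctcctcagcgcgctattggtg
The Klf9 window holds TGAATCA 89 bases before the start and TTCTGCGAA 33 bases before it. The other 3 windows hold neither motif, and none of the 4 holds the letters AGAACA of the glucocorticoid response element. Over all 32851 promoters of the table, 6.75% hold the AP-1 letters, 7.02% the GAS letters and 16.1% AGAACA.

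Glucocorticoid-induced genes had the largest share of called members among the pathway lists. With all libraries 19 of 30 members tested were higher in MOR–LPS and none was lower, against 4.38% of all genes higher, and the median log2 fold change of the 30 was 1.45 against 0.01 over all genes. Klf9, a transcription factor induced directly by glucocorticoid and thyroid hormone receptors, was at 18.1, 26.3 and 44.3 normalized CPM (lowest, median and highest) in MOR–SAL and at 37.6, 62.0 and 204 in MOR–LPS. The groups overlapped in 3 MOR–LPS libraries, and all 14 lay above the MOR–SAL median. The log2 fold change of Klf9 was 1.43 ± 0.20 (SE, adjusted p = 2.68e-05, edgeR). It was 1.10 without glial RNA (adjusted p = 0.0084, edgeR) and 1.04 without cortical or hippocampal RNA (adjusted p = 0.00839, edgeR), and 0.43 without both (adjusted p = 0.319, edgeR).

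Hif3a, a hypoxia-inducible factor subunit that limits hypoxia signalling, was at 0.422, 2.34 and 7.54 normalized CPM in MOR–SAL and at 2.12, 22.6 and 106 in MOR–LPS, and 12 of 14 MOR–LPS libraries lay above every MOR–SAL library. It rose by 3.09 ± 0.53 on the log2 scale (adjusted p = 0.000325, edgeR) and stayed called without glial RNA (1.79, adjusted p = 0.0322, edgeR) and without cortical or hippocampal RNA (2.84, adjusted p = 0.014, edgeR). Arrdc2, an arrestin-domain gene induced by glucocorticoids, was at 0.997, 5.09 and 7.88 in MOR–SAL and at 5.58, 23.8 and 212 in MOR–LPS, with 13 of 14 above every MOR–SAL library. Its log2 fold change of 2.92 ± 0.42 (adjusted p = 2.8e-05, edgeR) became 1.23 without glial RNA, where it was not called (adjusted p = 0.0807, edgeR), and 3.22 without cortical or hippocampal RNA. Zbtb16, a transcriptional repressor, went from 5.29, 16.7 and 60.1 to 11.9, 59.5 and 216, and 7 MOR–LPS libraries lay above the range of MOR–SAL. Its log2 fold change of 2.05 ± 0.34 (adjusted p = 0.000217, edgeR) was 0.87 without cortical or hippocampal RNA (adjusted p = 0.163, edgeR) and -0.13 without both sets.

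The other called members were Cdkn1a, Bcl6, Nfkbia, Mt1, Pdk4, Sgk1, Ddit4, Fkbp5, Klf15, Cebpd, Errfi1, Angptl4, Plin4, Slc2a1 and Per1. Fkbp5 and Sgk1 were described after their values were seen because both are standard markers of glucocorticoid action, Fkbp5 as a co-chaperone that damps the receptor and Sgk1 as a kinase that regulates ion transport. Fkbp5 was at 8.11, 10.8 and 21.6 normalized CPM in MOR–SAL and at 0, 30.9 and 67.6 in MOR–LPS, with 9 libraries above and 1 below all of MOR–SAL. It rose by 1.46 ± 0.35 on the log2 scale (adjusted p = 0.00848, edgeR), but was not called without glial RNA (0.65, adjusted p = 0.47) or with litter as a replicate block (adjusted p = 0.0974). Sgk1 went from 20.1, 29.5 and 86.2 to 7.95, 62.6 and 453, and 6 of 14 MOR–LPS libraries exceeded the MOR–SAL range. The log2 fold change of Sgk1, 1.54 ± 0.36 (adjusted p = 0.00736, edgeR), was -0.05 without glial RNA (adjusted p = 0.967) and was not called with the replicate block (adjusted p = 0.071). Tsc22d3, a classic target of the receptor, had a log2 fold change of 0.47 (adjusted p = 0.321, edgeR), and Dusp1 of 0.56 (adjusted p = 0.267, edgeR).

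The count of called glucocorticoid-induced genes moved with the libraries kept. Without the libraries with glial RNA, 4 of 29 members were called (Klf9, Bcl6, Zbtb16 and Hif3a, median log2 fold change 0.68), against 1.08% of all genes higher. Without those with cortical or hippocampal RNA 11 of 30 were called (median 1.14; 1.07% of all genes), and with litter as a replicate block 11 of 30 (1.03%). With counts summed over litters and that block 5 of 30 were called (0.481%), and with the glial marker sum as a covariate 7 of 30 (2.71%). Without both sets of libraries edgeR called 0 of 29, with 6 at an unadjusted p under 0.05 and a median of 0.01. DESeq2 called 20 of 30 with all libraries, and edgeR called 11 without litter 15. Klf9, Hif3a and Bcl6, a repressor known from lymphocytes that is also expressed in the brain, were the 3 members called in each of the first 3 library sets.

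**Figure D2:**
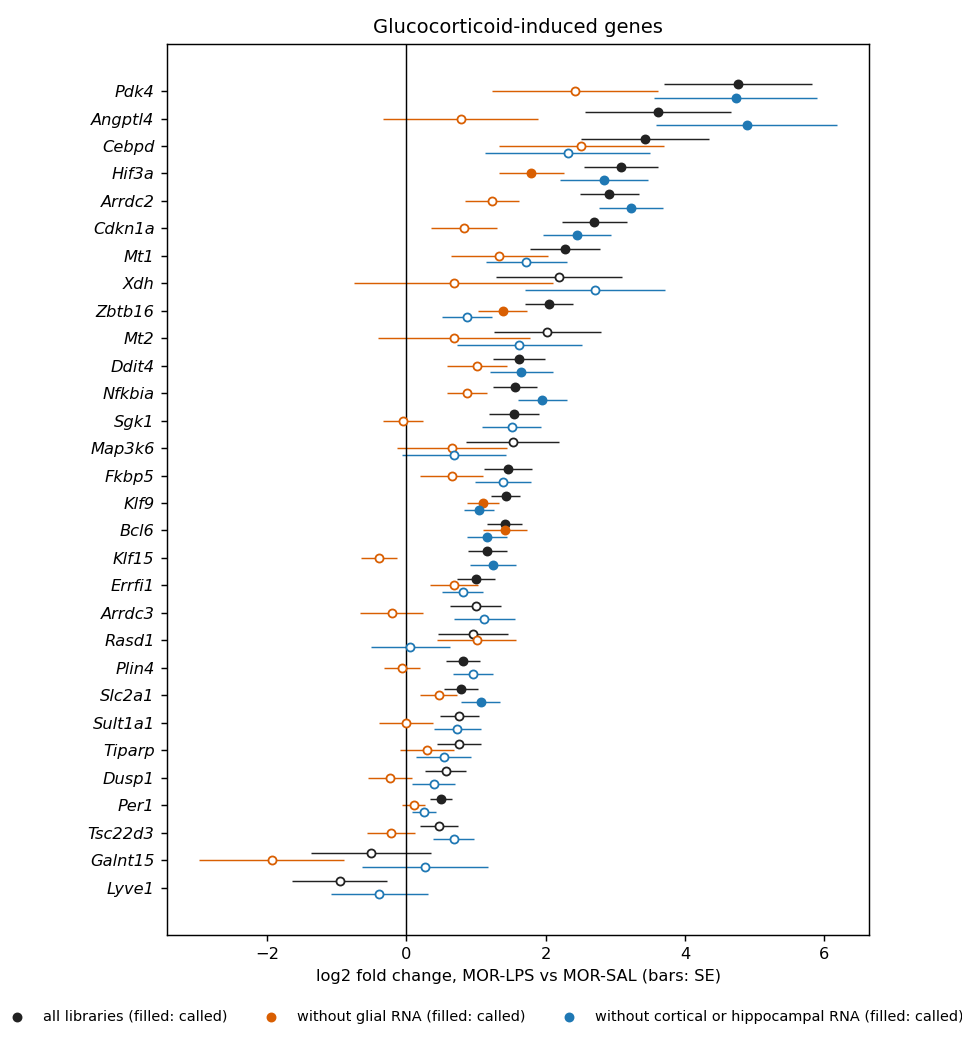
Log2 fold change of the 30 glucocorticoid-induced genes in MOR–LPS vs MOR–SAL with its standard error as a bar, for all libraries (black), without glial RNA (orange) and without cortical or hippocampal RNA (blue); filled points passed an adjusted p of 0.05. With all libraries 28 of 30 points lie to the right of 0, and the orange points lie nearer to 0 than the black ones for most genes.

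Genes of NF-kB feedback and acute inflammation had 8 of 31 members tested higher and none lower, against 4.38% of all genes higher (median log2 fold change 0.92). The 8 were Lcn2, Cd14, Nfkbia, Cxcl1, Vcam1, Icam1, Ccl2 and Cxcl10. Lcn2, which encodes lipocalin 2, an iron-siderophore binding protein of the acute phase, had no count in 13 of 14 MOR–SAL libraries and was at 1.51 normalized CPM in the other. In MOR–LPS it was at 0, 6.94 and 35, and 10 of 14 libraries lay above all of MOR–SAL. The log2 fold change was 6.39 ± 1.03 (adjusted p = 0.000171, edgeR), and it stayed called without glial RNA (4.95, adjusted p = 0.0195) and without cortical or hippocampal RNA (6.88, adjusted p = 0.0012). Nfkbia, the inhibitor that returns NF-kB to the cytoplasm and is also induced by glucocorticoids, was at 3.66, 9.58 and 15.5 in MOR–SAL and at 3.34, 23.8 and 84.4 in MOR–LPS, with 12 of 14 above the MOR–SAL range. It rose by 1.56 ± 0.31 on the log2 scale (adjusted p = 0.00201, edgeR), and the value without glial RNA was 0.88 (adjusted p = 0.0941, edgeR).

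Cd14, the co-receptor that hands LPS to Tlr4, had no count in any MOR–SAL library and 164 counts over MOR–LPS, at least 56.6-fold higher against a floor of 3 counts over the group. It was detected in 9 of 14 MOR–LPS libraries at up to 8.88 normalized CPM (adjusted p = 0.00112, edgeR; 0.0675 without glial RNA). Cxcl1, a chemokine for neutrophils, was likewise at 0 in MOR–SAL and detected in 7 of 14 MOR–LPS libraries, at least 13.1-fold higher (adjusted p = 0.00982, edgeR), but it was not called without glial RNA (adjusted p = 0.147) or with litter as a replicate block (adjusted p = 0.14). Ccl2 and Cxcl10, also at 0 in all MOR–SAL libraries, were detected in 4 and 3 MOR–LPS libraries (at least 10-fold and 15.9-fold higher, adjusted p = 0.0235 and 0.0273, edgeR). With the replicate block they were not called (adjusted p = 0.238 and 0.363), and their calls were lost in 1 and 2 of the 28 fits without 1 library. The cytokine Il1b had 2 counts in MOR–SAL and 38 in MOR–LPS, a ratio of 19.7 (95% counting interval 5.09 to 168), and did not pass the test (adjusted p = 0.249, edgeR). Tlr4 had a log2 fold change of 3.19 (adjusted p = 0.071, edgeR) and the feedback inhibitor Tnfaip3 of 0.15 (adjusted p = 0.963, edgeR). The number of members called was 1 of 27 without glial RNA (Lcn2; 1.08% of all genes higher), 4 of 31 without cortical or hippocampal RNA (1.07%), 6 of 31 with the replicate block (1.03%), 1 of 31 with counts summed over litters and that block (Lcn2; 0.481%), 4 of 31 with the glial covariate (2.71%), 4 of 23 with filterByExpr (3.24%), which leaves Cd14, Cxcl1, Ccl2 and Cxcl10 untested, and 0 of 26 without both sets of libraries, where 4 had an unadjusted p under 0.05 in edgeR. It was 5 without litter 6 or 16 and 4 without litter 15.

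Of the IL-6 and STAT3 response genes, 6 of 22 were higher and none was lower (median log2 fold change 0.60), and of the cytokine receptor genes, which share Il6ra, Lifr and Osmr with them, 5 of 20 (median 0.75), against 4.38% of all genes higher. Il6ra, the IL-6 receptor subunit, was at 0, 0.192 and 0.932 normalized CPM in MOR–SAL and at 0, 4.53 and 28.9 in MOR–LPS. In 12 of 14 MOR–LPS libraries it exceeded every MOR–SAL library, and the log2 fold change was 4.09 ± 0.78 (adjusted p = 0.00124, edgeR; 0.0255 without glial RNA and 0.0555 without cortical or hippocampal RNA). Il1rap, the accessory chain that IL-1 receptors need for signalling, went from 35.6, 49.4 and 88.3 to 46.8, 87.8 and 297, with 7 of 14 above the MOR–SAL range. Its log2 fold change was 1.07 ± 0.24 (adjusted p = 0.00681, edgeR), 1.33 without glial RNA (adjusted p = 0.017) and 0.43 without cortical or hippocampal RNA (adjusted p = 0.336).

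Lifr, a receptor subunit of the IL-6 cytokine family, was at 19.3, 44.0 and 91.6 in MOR–SAL and at 37.9, 74.6 and 139 in MOR–LPS, so that 8 of 14 MOR–LPS libraries lay within the MOR–SAL range. It rose by 0.88 ± 0.23 on the log2 scale (adjusted p = 0.016, edgeR) and was not called without glial RNA (0.12, adjusted p = 0.865), nor without litter 15 or 16. Cebpd, a transcription factor of the acute phase, went from 0, 0.173 and 4.38 to 0, 7.11 and 14.6 (log2 fold change 3.43 ± 0.92, adjusted p = 0.018, edgeR), and lost its call without either library set (adjusted p = 0.22 and 0.29) and without litter 14 or 16. Cebpb and Osmr, the oncostatin M receptor, also passed with all libraries (adjusted p = 0.027 and 0.0314, edgeR), but not with litter as a replicate block (adjusted p = 0.278 and 0.213). Cebpb was not called without litter 8 or 14, nor Osmr without litter 6, 7, 14 or 16 or without 1 MOR–LPS library of litter 14 or 16. Stat3 itself had a log2 fold change of 0.51 (adjusted p = 0.0516, edgeR) and Socs3, its feedback inhibitor, of 1.36 (adjusted p = 0.32, edgeR). Of the IL-6 and STAT3 genes 1 was called without glial RNA (Il6ra; 1.08% of all genes higher), 3 with the replicate block (1.03%), 1 with counts summed over litters and that block (0.481%), 1 with the glial covariate (2.71%) and 0 without cortical or hippocampal RNA (1.07%), where 7 had an unadjusted p under 0.05 in edgeR. DESeq2 called 8 with all libraries (4.76%), and edgeR called 2 without litter 14 or 16. Of the cytokine receptor genes 2 were called without glial RNA, with the glial covariate and with counts summed over litters (Il1rap and Il6ra), 3 with the replicate block, 3 without litter 6, 7, 14 or 15, 2 without litter 16, and 0 without cortical or hippocampal RNA, where 7 of 20 had an unadjusted p under 0.05 in edgeR.

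Interferon response and antigen presentation genes had 5 of 38 members higher and none lower (H2-K1, Ifi27, Xaf1, Gbp2 and B2m; median log2 fold change 1.16), against 4.38% of all genes higher. H2-K1, a class I major histocompatibility heavy chain with near-identical relatives among which reads can be split, was at 0, 1.63 and 3.81 normalized CPM in MOR–SAL and at 0, 12.3 and 77.0 in MOR–LPS. All but 1 of the 14 MOR–LPS libraries lay above the MOR–SAL range, and the log2 fold change was 3.39 ± 0.65 (adjusted p = 0.00128, edgeR; 0.00869 without cortical or hippocampal RNA, 0.11 without glial RNA). Ifi27, an interferon-induced protein of mitochondria, went from 0, 9.38 and 13.0 to 5.26, 25.8 and 75.4, with 12 of 14 above the range (2.00 ± 0.43, adjusted p = 0.00424, edgeR). Xaf1, an interferon-induced promoter of apoptosis, was above the MOR–SAL range in 9 libraries (3.41 ± 0.85, adjusted p = 0.0114, edgeR) and was not called without litter 15. Gbp2, a guanylate-binding protein that attacks the membranes of pathogens, exceeded the MOR–SAL range in only 4 libraries (adjusted p = 0.0446, edgeR). Its call was lost in 17 of the 28 fits that each left out 1 library, with the replicate block (adjusted p = 0.176) and in DESeq2 (adjusted p = 0.163). Without glial RNA edgeR called 0 of 38, with 3 at an unadjusted p under 0.05; without cortical or hippocampal RNA it called 3 (1.07% of all genes higher). With the replicate block it called 3 (1.03%), with counts summed over litters and that block 2 (0.481%) and with the glial covariate 1 (2.71%). It called 2 without litter 15 and 3 without litter 7, 12, 14 or 16 or any of 13 single libraries.

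Among prostaglandin genes 2 of 15 were higher, against 4.38% of all genes. Ptgds, which makes prostaglandin D2 and is a product of oligodendrocytes, meninges and choroid plexus, was at 12.5, 30.8 and 80.1 normalized CPM in MOR–SAL and at 43.4, 209 and 2670 in MOR–LPS, with 10 of 14 above the range. It rose by 3.29 ± 0.55 on the log2 scale (adjusted p = 0.000251, edgeR), and by 0.99 without glial RNA, where it did not pass (adjusted p = 0.0643). Pla2g4a, the phospholipase that frees arachidonic acid, had 1 count over MOR–SAL and 129 over MOR–LPS, a ratio of 134 with a 95% counting interval of 23.6 to 5320, and was above the MOR–SAL range in 10 libraries (adjusted p = 0.000914, edgeR; 0.124 without glial RNA). The enzymes of prostaglandin E2 synthesis, the mediator of fever, did not pass: Ptgs2 had a log2 fold change of 1.99 (adjusted p = 0.193, edgeR) and Ptges of -0.14 (adjusted p = 0.908, edgeR). Without glial RNA edgeR called 0 of the 15, with 4 at an unadjusted p under 0.05, and without cortical or hippocampal RNA and with the replicate block it called the same 2. With counts summed over litters and that block it called Ptgds alone.

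Immediate early genes, which mark recent neuronal activity, had 1 of 31 members higher against 4.38% of all genes, Arc (8.86, 18.8 and 36.8 normalized CPM in MOR–SAL; 11.0, 25.2 and 406 in MOR–LPS; log2 fold change 1.68 ± 0.45, adjusted p = 0.0174, edgeR). Only 4 MOR–LPS libraries exceeded the MOR–SAL range, and the call was lost without cortical or hippocampal RNA (adjusted p = 0.898), without glial RNA (0.259), without litter 16 or 1 MOR–LPS library of that litter and with the replicate block (0.13). Fos had a log2 fold change of 0.12 (adjusted p = 0.843, edgeR). With all libraries DESeq2 called 4 of the 31 higher (Arc, Egr4, Ier5 and Jun), against 4.76% of all genes. Of 31 hypothalamic neuropeptide genes likewise 1 was higher, Vip, the peptide of the suprachiasmatic clock and of cortical interneurons, at 0, 0 and 2.72 in MOR–SAL and 0, 3.07 and 62.0 in MOR–LPS (4.74 ± 1.01, adjusted p = 0.00361, edgeR). It was not called without glial RNA (adjusted p = 0.195), without cortical or hippocampal RNA (0.48) or without litter 16. Crh, which drives the pituitary-adrenal axis, had a log2 fold change of 1.36 (adjusted p = 0.304, edgeR), and the hunger peptide Agrp of 0.50 (adjusted p = 0.715, edgeR). Pomc, the satiety precursor, had a value of -0.95 (adjusted p = 0.544, edgeR) but fell by 2.97 with litter as a replicate block (adjusted p = 0.0413, edgeR), and was not called with counts summed over litters and that block (-2.67, adjusted p = 0.112, edgeR). Without cortical or hippocampal RNA edgeR called 0 of the 31 immediate early and 0 of the 31 neuropeptide genes, with 1 of each list at an unadjusted p under 0.05. Without glial RNA it called 0 immediate early genes, with 2 at an unadjusted p under 0.05, and 2 neuropeptide genes, Bdnf and Ucn3, in opposite directions.

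Hormone and stress receptor genes had 2 of 20 higher, against 4.38% of all genes: Thra, a thyroid hormone receptor, and Npy1r, a neuropeptide Y receptor. Thra went from 96.7, 117 and 165 to 110, 164 and 297 normalized CPM (0.52 ± 0.13, adjusted p = 0.0137, edgeR), and 7 of the 14 MOR–LPS libraries lay within the MOR–SAL range. It was not called without litter 16. Npy1r went from 1.97, 11.9 and 21.9 to 4.61, 18.1 and 98.5 (1.04 ± 0.34, adjusted p = 0.0468, edgeR), and lost its call in 14 of the 28 fits that left out 1 library. Neither passed with the replicate block (adjusted p = 0.0996 and 0.204). Of 8 opioid receptor and peptide genes, the mu receptor Oprm1, through which morphine acts, was lower, against 2.45% of all genes. It was at 42.7, 66.9 and 93.5 in MOR–SAL and at 10.2, 41.7 and 89.8 in MOR–LPS, and 7 of 14 lay below the MOR–SAL range. It fell by 0.71 ± 0.20 on the log2 scale (adjusted p = 0.0211, edgeR; 0.0448 without glial RNA), with a value of -0.39 without cortical or hippocampal RNA (adjusted p = 0.263) and an adjusted p of 0.0771 with the replicate block, or 0.0415 with counts summed over litters and that block. It was also not called without litter 6 or 14. Without cortical or hippocampal RNA edgeR called 0 of the 8 opioid genes and 0 of the 20 hormone and stress receptor genes, with 1 of each list at an unadjusted p under 0.05. Without glial RNA it called Oprm1 and Npy1r.

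Circadian clock genes had 2 of 22 higher and 1 lower, against 4.38% and 2.45% of all genes. Ciart, a clock repressor, went from 18.4, 26 and 35.9 to 21.5, 44.2 and 132 normalized CPM (0.89 ± 0.21, adjusted p = 0.00808, edgeR), and Per1, a clock gene that glucocorticoids also induce, from 117, 166 and 251 to 160, 201 and 511 (0.50 ± 0.16, adjusted p = 0.0439, edgeR). Neither was called with the replicate block (adjusted p = 0.0743 and 0.213), and Per1 lost its call in 14 of the 28 fits without 1 library. Bhlhe41, another repressor, fell by 0.50 ± 0.15 on the log2 scale (adjusted p = 0.036, edgeR), with all 14 MOR–LPS libraries below the MOR–SAL median of 129; it lost its call in 5 of those 28 fits. Few members of the stress and metabolic lists were called, beside the same 4.38% and 2.45% of all genes. Of 20 heat shock genes 1 was lower (Hsph1, -0.36 ± 0.10, adjusted p = 0.0272, edgeR), of 19 unfolded protein response genes 2 were higher (Slc3a2, 0.59 ± 0.15, adjusted p = 0.0109, and Slc7a11, 2.31 ± 0.71, adjusted p = 0.0376, edgeR), and of 36 glycolysis, pyruvate and citric acid cycle genes 2 were higher. The latter were Pdk4, the kinase that shuts off pyruvate dehydrogenase (4.76 ± 1.06, adjusted p = 0.00555, edgeR), and the glucose transporter Slc2a1 (0.79 ± 0.24, adjusted p = 0.0368, edgeR). With the replicate block Hsph1, Slc3a2, Slc7a11 and Slc2a1 did not pass (adjusted p = 0.153, 0.104, 0.0582 and 0.143), and without 1 library Slc7a11 and Slc2a1 each lost the call in 9 of the 28 fits. Hsph1 also lost it without litter 14, 16 or 17, and Slc3a2 without litter 15 or 16. Without glial RNA edgeR called 0 of 22 clock, 0 of 20 heat shock, 0 of 19 unfolded protein response and 0 of 36 glycolysis genes, with 3, 3, 4 and 4 at an unadjusted p under 0.05. Without cortical or hippocampal RNA it called Bhlhe41, Pdk4 and Slc2a1 and 0 of the heat shock and unfolded protein response genes (3 and 6 at an unadjusted p under 0.05). Over all fits without 1 litter or 1 library, edgeR called 1 to 5 clock genes, 0 to 4 immediate early genes, 0 to 4 opioid genes, 0 to 2 hormone and stress receptor genes and 0 to 2 unfolded protein response genes.

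**Figure D3:**
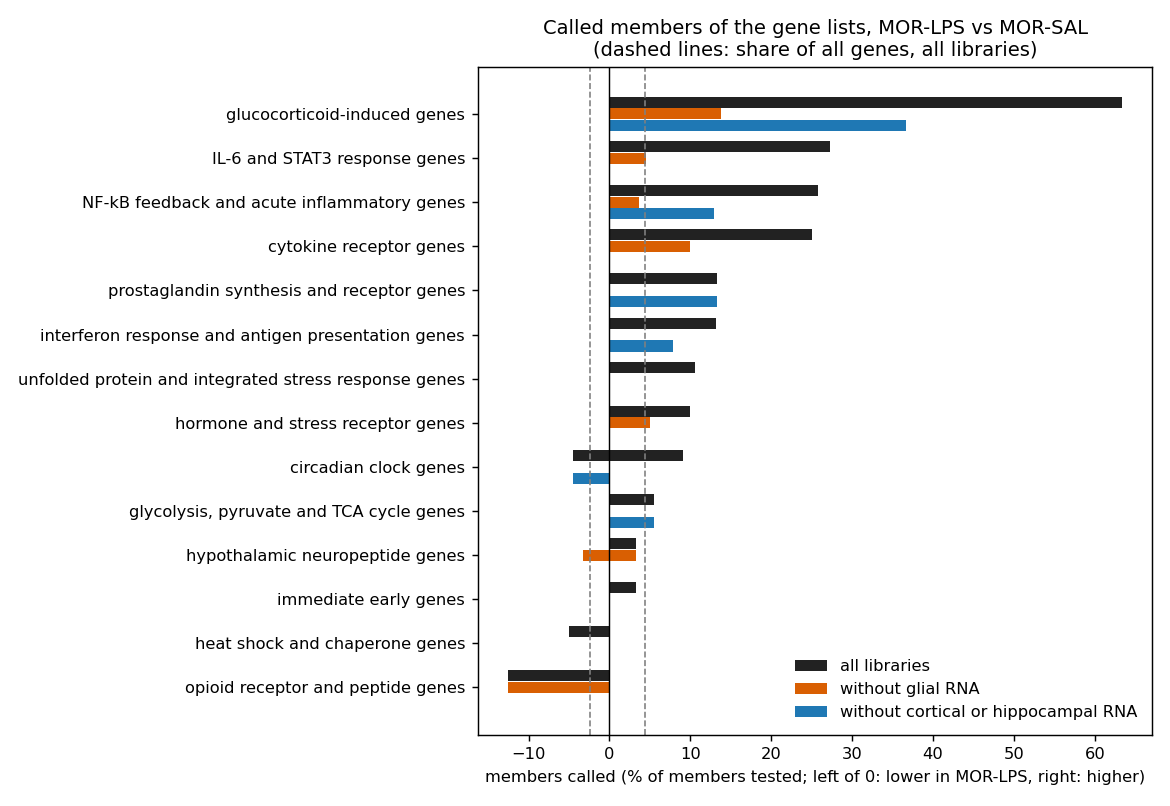
Share of the tested members of each pathway list that were called higher (right of 0) or lower (left of 0) in MOR–LPS vs MOR–SAL, in percent, for all libraries (black), without glial RNA (orange) and without cortical or hippocampal RNA (blue). The dashed lines mark the 4.38% and 2.45% of all genes called higher and lower with all libraries; glucocorticoid-induced genes stand apart with 19 of 30 members.

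Over all genes the smallest p belonged to Slc1a2, the glutamate transporter that astrocytes use to clear synapses. It was at 60.5, 84.9 and 181 normalized CPM in MOR–SAL and at 84.9, 306 and 834 in MOR–LPS, where 10 of 14 libraries lay above the MOR–SAL range. It rose by 1.96 ± 0.24 on the log2 scale (adjusted p = 1.27e-06, edgeR), by 1.41 without glial RNA (adjusted p = 0.00427), by 1.24 without cortical or hippocampal RNA (adjusted p = 0.00216) and by 0.56 without both, where it did not pass (adjusted p = 0.225). Gfap, the intermediate filament of astrocytes, was at 0, 0 and 2.44 in MOR–SAL and at 4.24, 13.1 and 46.3 in MOR–LPS, and the groups did not overlap. The log2 fold change of Gfap was 5.22 ± 0.75 (adjusted p = 2.68e-05, edgeR), and it was called without glial RNA (3.77, adjusted p = 0.0273) and without cortical or hippocampal RNA (4.77, adjusted p = 0.00171), but not without both (3.27, adjusted p = 0.126, edgeR). With these, 8 of 10 astrocyte, 6 of 10 oligodendrocyte, 4 of 6 oligodendrocyte precursor, 5 of 12 microglia and 3 of 12 endothelial and mural markers were higher in MOR–LPS, against 4.38% of all genes. With litter as a replicate block these counts were 5, 3, 1, 2 and 2 (1.03% of all genes), and with counts summed over litters and that block 4, 2, 0, 0 and 0 (0.481%), where 1 precursor, 4 microglia and 5 endothelial and mural markers had an unadjusted p under 0.05 in edgeR. Without the libraries with glial RNA, which were defined by oligodendrocyte and microglia markers, 2 astrocyte markers remained called (Slc1a2 and Gfap), with a median log2 fold change of 0.21 over the 10 against 2.32 with all libraries. That fit kept MOR–LPS libraries with astrocyte sums above every MOR–SAL library, up to 609 normalized CPM. Without both sets edgeR called 0 of 10 astrocyte markers, with 3 at an unadjusted p under 0.05 and a median of -0.052. Hypothalamus markers had 0 of 17 called in edgeR, with 1 at an unadjusted p under 0.05 and a median of -0.12, and DESeq2 called 0 as well. With litter as a replicate block 1 of 17 was lower (Pomc), 6 had an unadjusted p under 0.05 and the median was -1.54, and with counts summed over litters and that block 1 was lower (Trh), 8 had an unadjusted p under 0.05 and the median was -1.55.

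Apod, a lipocalin of glia that binds arachidonic acid, went from 0, 4.08 and 8.85 normalized CPM to 7.68, 65.2 and 518, with 13 of 14 MOR–LPS libraries above the range. The log2 fold change was 4.51 ± 0.67 with all libraries (adjusted p = 4.07e-05, edgeR) and 3.10 without both library sets (adjusted p = 0.0238, edgeR). Fcgr2b, the inhibitory receptor for immunoglobulin G, had 1 count in MOR–SAL and 306 in MOR–LPS, a ratio of 317 (95% counting interval 56.5 to 12600). It was above the MOR–SAL range in 9 of 14 libraries (adjusted p = 0.000171, edgeR; 0.00121 without both sets). It was detected in all 7 MOR–LPS libraries with glial RNA and in 2 of the other 7, so the call without both sets rests on 2 of 4 libraries, the other 2 being at 0. Abca1, the cholesterol exporter, went from 10.5, 17.8 and 25.8 to 0.265, 76.6 and 166 (2.01 ± 0.32, adjusted p = 0.000171, edgeR), with 11 libraries above and 1 below the MOR–SAL range, and was not called without glial RNA (1.04, adjusted p = 0.115). Tcf4, a transcription factor of neurons and glia, rose by 1.73 ± 0.28 on the log2 scale (adjusted p = 0.000183, edgeR) from 39.4, 95.5 and 120 to 76.0, 188 and 707, and was at 0.52 without cortical or hippocampal RNA (adjusted p = 0.152). RP23-375H15.2, a gene known only by its clone name, was detected in 9 of 14 MOR–LPS libraries at up to 103 normalized CPM and in 2 of 14 MOR–SAL libraries at up to 0.537 (7.55 ± 1.08, adjusted p = 2.68e-05, edgeR; 0.0513 without cortical or hippocampal RNA). Its highest libraries were among those with cortical or hippocampal RNA.

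Of the 10 leading genes that fell, 9 had log2 fold changes between -1.19 and -0.65 and Onecut3 had -4.15. Of these 10 genes, 8 were called with all libraries, without glial RNA and without cortical or hippocampal RNA, and without both sets edgeR called Onecut3 alone (adjusted p of the other 9 from 0.0538 to 0.333). Adam4, a gene of the ADAM metalloprotease family known from testis, was at 33.1, 45.9 and 73.8 normalized CPM in MOR–SAL and at 10.3, 21.3 and 38.0 in MOR–LPS, with 13 of 14 below the MOR–SAL range. It fell by 1.19 ± 0.19 on the log2 scale (adjusted p = 0.000171, edgeR), by 1.21 without glial RNA and by 1.27 without cortical or hippocampal RNA. Dsel, an epimerase of dermatan sulfate chains, was at 21.3, 56.1 and 84.8 against 17.3, 29.4 and 40.3. All 14 MOR–LPS libraries lay below the MOR–SAL median though only 2 lay below its range (fell by 0.94 ± 0.15, adjusted p = 0.000215, edgeR). Fndc3a, a protein with fibronectin type III domains, went from 99.7, 171 and 205 to 65.0, 92.8 and 146 (fell by 0.79 ± 0.14, adjusted p = 0.000544, edgeR). Zfp941, a zinc finger gene, fell by 0.80 ± 0.14 (adjusted p = 0.000544, edgeR), with 12 of 14 below the MOR–SAL range.

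Gabrg3, a GABA type A receptor subunit, went from 55.4, 120 and 213 to 38.9, 57.0 and 104 normalized CPM (-1.0 ± 0.19, adjusted p = 0.000914, edgeR). Grm7, a presynaptic metabotropic glutamate receptor, went from 200, 262 and 412 to 75.0, 163 and 257, with 12 of 14 below the MOR–SAL range (-0.77 ± 0.15, adjusted p = 0.00111, edgeR). Lingo2, a leucine-rich repeat membrane protein, was below that range in 13 of 14 libraries (-0.65 ± 0.13, adjusted p = 0.0021, edgeR). Onecut3, a transcription factor of neuronal differentiation, was detected in all MOR–SAL libraries at 0.121, 2.82 and 7.73 and in 4 of 14 MOR–LPS libraries at up to 0.858. Its log2 fold change was -4.15 ± 0.83 (adjusted p = 0.00182, edgeR), and it stayed called without both library sets (adjusted p = 0.0238). Jakmip1, which binds GABA receptor subunits and microtubules, and L3mbtl1, a chromatin reader, fell by 0.79 ± 0.16 and 0.81 ± 0.16 (adjusted p = 0.00182 and 0.0021, edgeR) and were not called without cortical or hippocampal RNA (adjusted p = 0.0701 and 0.0577). Gad2, a GABA-synthesizing enzyme and the single neuron marker called, went from 147, 196 and 375 to 48.8, 117 and 268 (-0.72 ± 0.22, adjusted p = 0.0399, edgeR; 0.47 without cortical or hippocampal RNA), and lost its call in 10 of the 28 fits without 1 library.

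**Figure D4:**
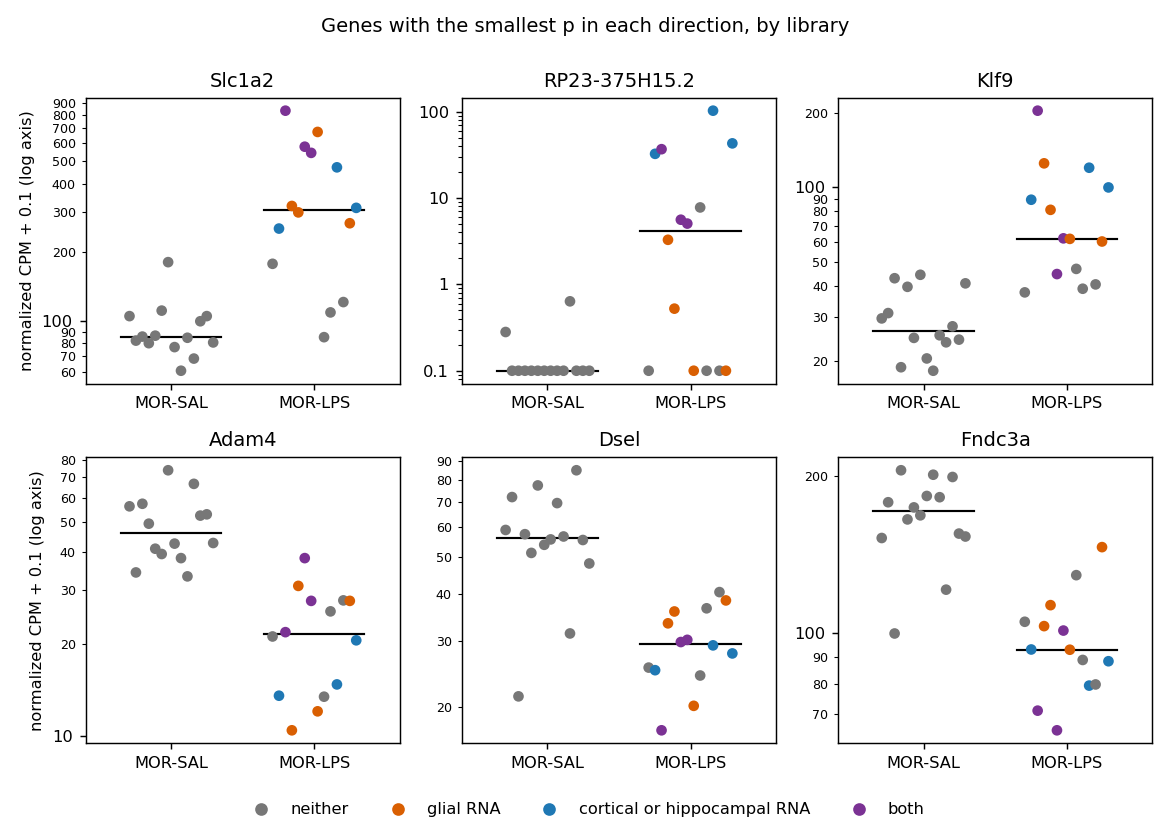
Normalized CPM (plus 0.1, log axis) of the 3 genes with the smallest p in each direction, 1 point per library, with the group median as a line and colours for libraries with glial RNA, with cortical or hippocampal RNA and with both (grey: neither by the limits in the text). The 4 grey MOR–LPS libraries of Slc1a2 and Klf9 lie in or near the MOR–SAL range, and of the genes that fell those of Adam4 lie below that range, those of Dsel within it and those of Fndc3a on both sides of its lower end.

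Exons of Slc1a2, Fcgr2b, Fndc3a, Il6ra, Cebpd, Cebpb, Thra, Oprm1, Il1rap, Grm7, Bdnf, Bcl6, Slc2a1, Bhlhe41, Lacc1, Gbp2 and Syt6 overlap exons of another gene on the opposite strand, and the strand used in counting is not given in the sources used here, so reads of such partners cannot be told apart. Zfp941, Jakmip1 and Sox2ot overlap at least 1 gene on the same strand, and Zgpat overlaps 1 on each strand.

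Whether perinatal morphine changed the response to LPS was tested as the difference between the responses of the exposures (MOR–LPS vs MOR–SAL minus SAL–LPS vs SAL–SAL). That difference was higher for 680 of 28841 genes (2.36%) and lower for 428 (1.48%). The balance moved with the fit: 436 were higher and 98 lower in DESeq2, 238 and 37 with filterByExpr, and 239 and 247 without glial RNA. In saline-exposed mice LPS left 16 genes higher (0.0555%) and 93 lower (0.322%), with 11 and 9 libraries, 2 of the SAL–SAL and 3 of the SAL–LPS libraries having glial RNA. Glucocorticoid-induced genes had 0 of 30 called in SAL–LPS vs SAL–SAL by edgeR (5 at an unadjusted p under 0.05, median log2 fold change 0.12), and 7 of 30 had a larger response after morphine: Klf9, Arrdc2, Ddit4, Hif3a, Tiparp, Nfkbia and Zbtb16. Markers of other cells and of thalamus moved with the same comparison: 6 of 10 oligodendrocyte, 3 of 10 astrocyte and 3 of 10 thalamus markers had a larger response after morphine. Thalamus markers were lower in SAL–LPS than in SAL–SAL for 6 of 10, and summed to 423, 1890 and 7850 normalized CPM (lowest, median and highest) in SAL–SAL against 331, 736 and 1490 in SAL–LPS. Their part in the differences was not tested. With litter as a replicate block only 28 genes differed between the responses of the exposures, 21 of them higher.

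Slc1a2 led the difference. Its lowest, median and highest values were 66.1, 243 and 461 normalized CPM in SAL–SAL and 77.8, 176 and 260 in SAL–LPS, so that the ranges of all 4 groups overlapped, and MOR–SAL had the lowest median, 84.9. The response was 1.96 after morphine and -0.66 after saline (adjusted p = 0.241), a difference of 2.62 ± 0.37 (adjusted p = 4.84e-05, edgeR), which was also called with the replicate block (adjusted p = 0.000673). Klf9 was at 23.9, 49.3 and 83.5 in SAL–SAL and 27.4, 42.4 and 74.8 in SAL–LPS, with a response of -0.11 and a difference of 1.53 ± 0.31 (adjusted p = 0.00613, edgeR). Without glial RNA or with the replicate block the difference for Klf9 did not pass (adjusted p = 0.0691 and 0.0795). Lcn2 rose in both exposures, by 5.60 on the log2 scale after saline (adjusted p = 0.0321, edgeR), and its responses differed by 0.79 (adjusted p = 0.968, edgeR).

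Fgd6, an exchange factor for small GTPases, rose after morphine (1.19, adjusted p = 0.0297) and fell after saline (-2.03, adjusted p = 0.0171), a difference of 3.23 ± 0.55 (adjusted p = 0.00117, edgeR). Its levels were 2.72, 5.26 and 9.94 in MOR–SAL, 3.01, 13.6 and 33.4 in MOR–LPS, 4.50, 18.0 and 62.6 in SAL–SAL and 0, 6.18 and 16.2 in SAL–LPS, and all 4 ranges overlapped. Clmn, a membrane protein with actin-binding domains, moved the same ways (0.89, adjusted p = 0.0258, and -1.44, adjusted p = 0.0176; difference 2.33 ± 0.39, adjusted p = 0.00117, edgeR). Both differences were also called with the replicate block (adjusted p = 0.0186 and 0.000673) and without either library set. In the other direction stood Smyd3, a lysine methyltransferase (difference -1.2 ± 0.23, adjusted p = 0.00345, edgeR), Syt6, a synaptotagmin (-2.13 ± 0.45, adjusted p = 0.0085, edgeR), and Slc6a5, the glycine transporter of glycinergic neurons (-9.12 ± 1.85, adjusted p = 0.00585, edgeR). Smyd3 and Syt6 rose after saline (0.78, adjusted p = 0.0282, and 1.5, adjusted p = 0.0376, edgeR) and did not pass after morphine (-0.42, adjusted p = 0.0639, and -0.63, adjusted p = 0.169). Slc6a5 was at 0 in 8 of 14 MOR–SAL, 10 of 14 MOR–LPS and 6 of 11 SAL–LPS libraries and reached 384 normalized CPM in SAL–LPS, against 65.2 in MOR–SAL. Syt6 and Slc6a5 were not called with the replicate block (adjusted p = 0.0592 and 0.434).

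**Figure D5:**
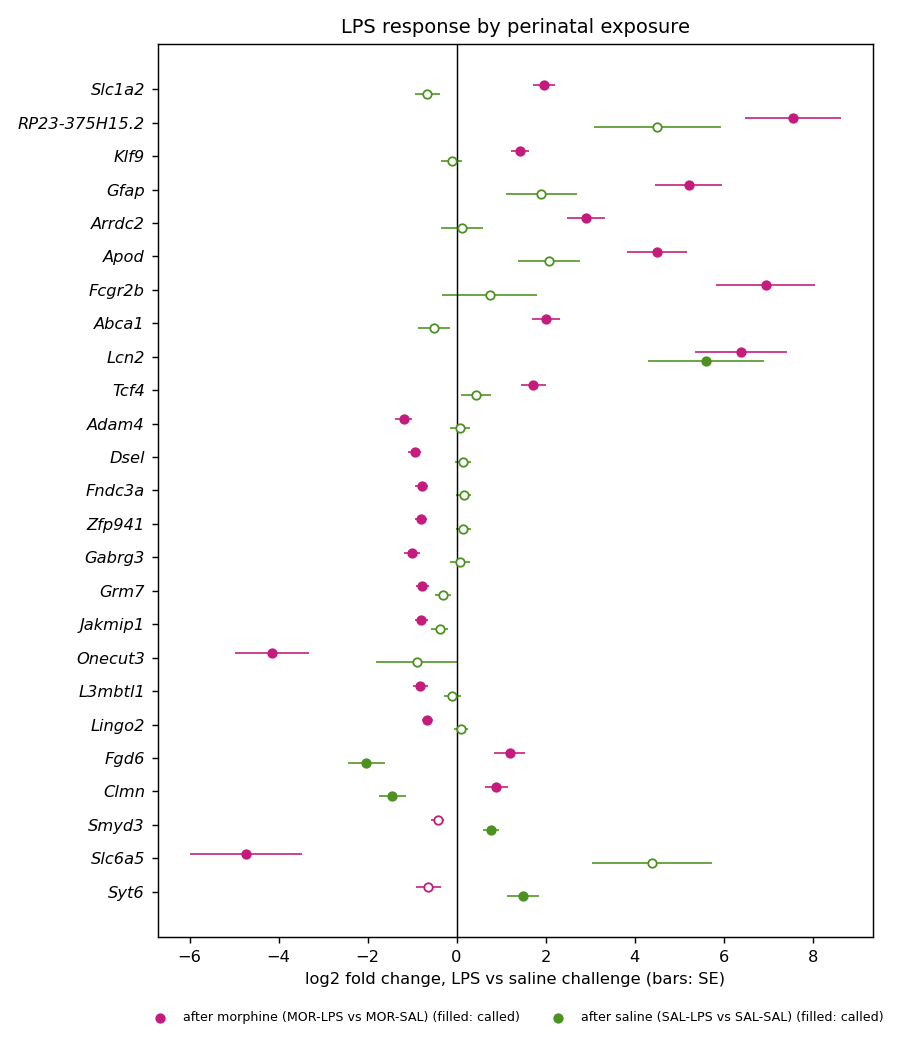
Log2 fold change of LPS vs saline challenge after perinatal morphine (magenta) and after perinatal saline (green) with standard errors as bars, for the 20 genes that led MOR–LPS vs MOR–SAL and for genes that led the difference between exposures; filled points passed an adjusted p of 0.05. Lcn2 is the gene whose 2 points are both filled and on the same side of 0, and Fgd6 and Clmn have filled points on opposite sides.

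The response was compared between sexes in the 28 morphine libraries. Each of the 10 morphine litters gave animals of 1 sex in these libraries, so that sex and litter cannot be told apart. Further, 6 of the 7 MOR–LPS libraries with glial RNA were labelled female, and 4 of the 6 with cortical or hippocampal RNA were labelled male. The response in males minus females was higher for 41 of 27210 genes (0.151%) and lower for 68 (0.25%), or, without cortical or hippocampal RNA, for 18 (0.0683%) and 106 (0.402%). Within each sex 493 genes (1.81%) were higher in MOR–LPS females and 353 (1.3%) in males, while 85 were lower in females and 232 in males. Glucocorticoid-induced genes had 14 of 30 members higher in females (median log2 fold change 1.54) and 6 of 30 in males (1.2), and 1 of the 30, Hif3a, differed between the sexes. Hif3a was at 0.422, 2.03 and 2.64 normalized CPM in MOR–SAL females and at 7.15, 69.9 and 106 in MOR–LPS females, against 2.15, 3.16 and 7.54 and 2.12, 13.1 and 54.9 in males. The response was 5.15 in females and 2.04 in males, a difference of -3.11 ± 0.72 (adjusted p = 0.0391, edgeR). Over both sexes Hif3a was at 24.9 to 106 in the 7 MOR–LPS libraries with glial RNA and at 2.12 to 20.4 in the 7 without. The part of glial RNA in the difference between sexes was not tested.

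Bdnf, the activity-dependent neurotrophin, was at 23.8, 31.3 and 41.7 in MOR–SAL females and at 8.76, 17.9 and 36.3 in MOR–LPS females, and at 11.6, 14.6 and 24.1 and at 15.7, 65.9 and 73.6 in males. It rose in males (1.77, adjusted p = 0.00134) and had a value of -0.76 in females (adjusted p = 0.17), a difference of 2.53 ± 0.43 (adjusted p = 0.0043, edgeR; 2.20 without cortical or hippocampal RNA, adjusted p = 0.0195). Calm2, a calmodulin gene, also rose in males (1.06, adjusted p = 0.00372), with a difference of 1.64 ± 0.29 (adjusted p = 0.0061, edgeR; 1.42 and adjusted p = 0.0337 without cortical or hippocampal RNA), as did AI593442 (1.23 in males, difference 1.44 ± 0.24, adjusted p = 0.0043, edgeR; 0.0527 without cortical or hippocampal RNA). In the other direction, Sox2ot, a noncoding transcript that spans the stem cell gene Sox2, rose in females (1.75, adjusted p = 0.00114) and fell in males (-1.60, adjusted p = 0.00567), a difference of -3.35 ± 0.46 (adjusted p = 0.000122, edgeR). Nwd1, a NACHT-domain protein, did the same (0.99 and -1.25; difference -2.23 ± 0.31, adjusted p = 0.000122, edgeR). Itih3, a heavy chain that binds hyaluronan, was at 4.56, 7.91 and 13.3 in MOR–SAL females and at 0.265, 203 and 944 in MOR–LPS females, while in males it was at 0.754, 16.4 and 24.1 and at 4.24, 7.07 and 12.1. The difference was -5.79 ± 0.87 (adjusted p = 0.000503, edgeR). It could not be examined without the libraries with glial RNA, since the 1 MOR–LPS library labelled female that is left is of unclear sex. All 6 differences were also called with litter as a replicate block and without the libraries of unclear sex.

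The same comparison in the other regions of the morphine mice was set beside the hypothalamus by limma-voom, with 15 MOR–LPS and 11 MOR–SAL libraries of the hippocampus, 14 and 12 of the prefrontal cortex (PFC) and 18 and 8 of the striatum. In that fit, over the 18237 genes expressed in each region, 8 of 30 glucocorticoid-induced genes were higher in the hypothalamus, where 1.18% of all genes were higher, and 2 of 30 (Fkbp5 and Hif3a) in the PFC, where 1.01% were. In hippocampus 0 of 30 were called, with 11 at an unadjusted p under 0.05, where 0% of all genes were higher, and in striatum 0 of 30, with 16 at an unadjusted p under 0.05, where 0.269% were. Their median log2 fold changes were 1.17 in hypothalamus, 0.57 in hippocampus, 0.79 in PFC and 1.10 in striatum. Between the regions' responses, 56 genes differed for the hippocampus (0.307%), 13 for the PFC (0.0713%) and 16 for the striatum (0.0877%).

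Fndc3a, lower in the hypothalamus (-0.83 in this fit), had values of 0.27 in hippocampus, 0.03 in PFC and 0.32 in striatum. The hypothalamus differed from hippocampus by -1.10 (adjusted p = 0.00859) and from striatum by -1.14 (adjusted p = 0.0133, limma). Bcl6 was at 1.29 in hypothalamus and -0.68 in hippocampus, a difference of 1.97 (adjusted p = 0.0127, limma). Lacc1, a gene of macrophage metabolism, was at 3.88 in hypothalamus, -0.06 in hippocampus, 3.22 in PFC and -0.10 in striatum, and the hypothalamus differed from hippocampus by 3.95 ± 0.70 (adjusted p = 0.00157, limma) and from striatum by 3.99 (adjusted p = 0.0133, limma). With the animals that gave both regions paired as a replicate block, 18 animals for each pair of regions, limma called 0 genes in any of these comparisons, with 1802, 1319 and 1800 genes at an unadjusted p under 0.05 for hippocampus, PFC and striatum.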

How the data were processed

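The authors trimmed reads with Trim Galore 0.6.7, aligned them to mm10 and counted reads per gene with STAR 2.7.10a (submitters' processing notes), and deposited raw counts of 46403 genes. The CPM tables and the other assays were not used here. Libraries with a total count under 50% of the median of 5543589 were left out, which kept 48. Genes with a total count above 10 were fitted with edgeR 4.0.16 (R 4.3.3, TMM, quasi-likelihood test) with 4 conditions and sex as terms, so that the conditions share an estimate of the spread. Adjusted p were Benjamini-Hochberg values over all genes tested, called under 0.05. SE is the log2 fold change divided by the root of F. Sex differences were fitted on the 28 morphine libraries, and regions with limma-voom 3.58.1 with the animal as a random effect. DESeq2 1.42.0 was an alternative. Scripts were tested on simulated data. A count of 0 allows up to 3 counts. Intervals and floors cover counting error only.

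Replicate labels carry the litter number, and the study's supplement gives the number as the litter. Deviations from the group means correlated by 0.0106 on average over 22 same-litter pairs (-0.056 to 0.155), by 0.000267 over 76 pairs of other litters of the same sex and by -0.000537 over 98 pairs of the other sex. Litter as a replicate block is given beside results whose call or count it moved.

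Named genes were the 10 called genes with the smallest p in each direction with a mean of at least 1 normalized CPM, up to 4 called members of each pathway list, and the 3 leading genes in each direction of the exposure, sex and region differences. Predicted genes, pseudogenes and mitochondrial genes were counted but not named. The members and gene lists were chosen with earlier results of these data known.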

Additional observations from a re-analysis of the deposited data

Results flagged for a closer look

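The genes below had responses to LPS that differed between groups by a test of the difference itself (adjusted p under 0.05), and no cause was tested. Between exposures (response after morphine minus response after saline, log2, edgeR), the difference was 2.62 for Slc1a2, 3.23 for Fgd6, 2.33 for Clmn, -1.2 for Smyd3, -9.12 for Slc6a5 and -2.13 for Syt6. Between sexes (males minus females, log2, edgeR), it was 2.53 for Bdnf, 1.44 for AI593442, 1.64 for Calm2, -3.35 for Sox2ot, -2.23 for Nwd1 and -5.79 for Itih3.

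Between regions (hypothalamus minus the other region, log2, limma-voom), it was 3.95 for Lacc1, 1.31 for Camk2a, 1.97 for Bcl6, -1.18 for Nup205, -1.10 for Fndc3a and -1.46 for Zgpat against the hippocampus. Against the PFC it was 0.98 for Map7d1, 0.83 for Ranbp10, 3.96 for Arl4d, -1.35 for Uba6, -2.20 for Zfp37 and -3.02 for Lin9. Against the striatum it was 3.66 for Fam212b, 3.99 for Lacc1, 1.45 for Gpm6b, -1.41 for Fhl1, -1.14 for Fndc3a and -4.30 for H2-Q2. None of these 18 differences between regions was called by limma with the shared animals paired as a replicate block.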

How the results depend on the processing

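MOR–LPS vs MOR–SAL gave 1971 called genes, and other fits gave 911 with filterByExpr, 3025 without the sex term, 840 in females alone, 444 in males alone, 1271 with the glial marker sum as a covariate, 457 with litter as a replicate block and 281 with counts summed over litters and the replicate block. There were 500 without glial RNA, 393 without cortical or hippocampal RNA, 1042 without the libraries lacking hypothalamic regulators and 101 without glial, cortical or hippocampal RNA, and from 697 to 2181 in the fits that left out a litter or a library. Of the 1971, 427 were also called with the replicate block, 305 without glial RNA, 323 without cortical or hippocampal RNA and 28 without both. These 4 library sets, the covariate and the sets below were chosen after seeing the data; fewer libraries and, with filterByExpr, fewer genes were then tested, and otherwise the cause was not tested. The exposure difference gave 1108 genes, and 534 in DESeq2, 275 with filterByExpr, 28 with the replicate block, 486 without glial RNA, 561 without cortical or hippocampal RNA, 598 without the libraries lacking hypothalamic regulators and 86 without glial, cortical or hippocampal RNA. The sex difference gave 109 genes, and 260 in DESeq2, 71 with filterByExpr and 3749 without glial RNA. In that last fit the female MOR–LPS arm is 1 library of unclear sex, so nothing is read from it. Of the region differences, hippocampus had 56 genes, and 30 without glial RNA and 19 without cortical or hippocampal RNA; striatum had 16, and 4 without an animal effect, 2 without glial RNA and 1 without cortical or hippocampal RNA. With paired animals as a replicate block all 3 region differences had 0. Without glial, cortical or hippocampal RNA the log2 fold change turned to -0.037 for Lifr, -0.12 for Cebpd, -0.13 for Zbtb16 and -0.12 for Arc. The fit also gave -0.62 for Cxcl1, at 0 in both groups, and -0.84 for Pla2g4a, at 0 in MOR–LPS with 1 count over MOR–SAL. No direction can be read from these counts. In the fit without glial RNA from which nothing is read the sex difference of Itih3 was 4.02. Over the named genes, 865 values kept direction and call, 269 kept direction without the call and 7 turned, with Cxcl1, Pla2g4a and Itih3 counted among the 7. The fits without 1 litter or 1 library are apart from these, with 1771 values that kept direction and call and 129 that kept direction alone. Without the libraries of unclear sex, 1623 genes were called in MOR–LPS vs MOR–SAL, and 43 of 50 named genes kept their call (not Gbp2, Npy1r, Bhlhe41, Per1, Hsph1, Slc7a11 and Slc2a1). The replicate block changed no call of the 20 leading genes. Total counts of 3036876 to 9227808 limit what can be said of genes near 0, such as Cxcl1 and Gbp2.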
